A study of Mus musculus with 6 samples.

Results

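The genes described here are 8 of the 35275 in the deposited tables, chosen by name as the genes that make, load, recover and receive the inhibitory transmitters of the spinal cord. They are Gad1 (ENSMUSG00000070880) and Gad2 (ENSMUSG00000026787), which encode the glutamate decarboxylases that make GABA, and Slc32a1 (ENSMUSG00000037771), which encodes the vesicular transporter that loads GABA and glycine into synaptic vesicles. Slc6a5 (ENSMUSG00000039728) and Slc6a9 (ENSMUSG00000028542) encode the neuronal and the mainly glial glycine transporter. Gphn (ENSMUSG00000047454) encodes gephyrin, the scaffold under inhibitory synapses. Slc12a5 (ENSMUSG00000017740) and Slc12a2 (ENSMUSG00000024597) encode the chloride exporter KCC2 and the chloride importer NKCC1. The genes are set by name with no threshold on a measured value, though they were chosen with earlier results of these data known. All 8 IDs were found, and all 8 had reads in every library. In the IG libraries the 8 genes together held 0.108% and 0.109% of the reads assigned to genes.

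GABA and glycine are the fast inhibitory transmitters of the spinal cord, and many spinal interneurons release both from the same vesicles. Both open chloride channels, so what they do to a neuron depends on the chloride gradient that KCC2 and NKCC1 set between them. In rodents the balance shifts from import towards export over the first weeks after birth. Loss of inhibition after spinal cord injury has been studied as a source of spasticity and pain.

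RNA was sequenced from 6 mouse samples, 2 in each of 3 groups. The labels describe neurons from the spinal cord of ICR mice (outbred) aged postnatal day 3 and held in DMEM culture medium. By the labels, IG was the untreated control, NG received a mechanical injury, and TG received the same injury followed by 75% hydrogen, an antioxidant gas. The match of group codes to treatments rests on the labels alone and was not tested. No transgene, deletion or agent common to all groups is named. The way and time of the injury and any pooling of animals are not stated in the labels. No label ties the libraries of a group to different animals or cultures, and the p-values below therefore reflect the spread between libraries, part of which may be technical.

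In each group, A names the library with more reads and B the one with fewer. Libraries held 15749447 to 23911141 reads assigned to genes, with 20627 to 21267 genes detected. Over all genes with a read, Pearson's r of log2 levels was 0.987 to 0.989 for libraries of 1 group, and lowest, at 0.951 to 0.953, for a TG library with an NG library. Mitochondrially encoded transcripts took 17.2% and 14.2% of the reads in NG A and B and 4.66% to 5.64% in the other 4 libraries. All 16 general neuron markers were detected in every library, and markers of other tissues were detected too. The 11 oligodendrocyte markers summed to 6.04% to 12.3% of a library's reads and the 6 red blood cell markers to 1.56% to 2.24%, against 0.322% to 0.689% for the neuron markers. With markers of muscle, fat, connective tissue and liver that differ between groups, given below, the libraries go against a label of neurons alone. What other cells they held, and whether cultured cells or tissue were sequenced, was not tested. Levels below are normalised reads, that is, reads divided by a size factor that puts the 6 libraries on one scale, and tests were limma's on log2(normalised reads + 1) with Benjamini-Hochberg adjustment over the 24511 genes with a read, two-sided at an adjusted p under 0.05.

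In the mm10 build 4 of the 8 genes lie on mouse chromosome 2. Gad2 spans 22622205 to 22693874, Gad1 70553072 to 70602014, Slc32a1 158610767 to 158615748 and Slc12a5 164960802 to 164999731. Elsewhere lie Slc6a9 on chromosome 4 (117834506 to 117875198), Slc6a5 on chromosome 7 (49910146 to 49963856) and Gphn on chromosome 12 (78226379 to 78684772). All are on the plus strand and protein coding. RefSeq promoter sequences of GRCm38.p6, the assembly behind mm10, were matched for 7 of the 8. The 250 bases before the start site are printed for the 5 genes with the largest log2 fold changes in both contrasts with NG below, one start site each: Gad1 at chr2:70561879-70562128, Gad2 at chr2:22622077-22622326, Slc32a1 at chr2:158610508-158610757, Slc6a5 at chr7:49910049-49910298 and Slc12a5 at chr2:164960596-164960845. Each is the plus strand, 5′ to 3′, and capitals mark matches to the motifs named after the sequences.
Gad1: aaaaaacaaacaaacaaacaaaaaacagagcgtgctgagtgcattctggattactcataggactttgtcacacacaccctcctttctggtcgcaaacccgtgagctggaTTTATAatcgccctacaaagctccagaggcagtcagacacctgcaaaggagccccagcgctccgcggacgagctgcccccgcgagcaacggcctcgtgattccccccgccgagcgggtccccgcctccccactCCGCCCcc
Gad2: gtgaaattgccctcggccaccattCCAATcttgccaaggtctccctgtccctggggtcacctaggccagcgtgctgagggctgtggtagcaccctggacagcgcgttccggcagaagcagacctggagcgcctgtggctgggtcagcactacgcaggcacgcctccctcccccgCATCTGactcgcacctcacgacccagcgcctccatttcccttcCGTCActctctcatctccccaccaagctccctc
Slc32a1: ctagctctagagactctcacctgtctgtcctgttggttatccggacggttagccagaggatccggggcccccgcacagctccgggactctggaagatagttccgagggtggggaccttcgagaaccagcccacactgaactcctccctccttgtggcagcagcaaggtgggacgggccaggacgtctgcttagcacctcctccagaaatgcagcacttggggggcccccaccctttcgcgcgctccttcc
Slc6a5: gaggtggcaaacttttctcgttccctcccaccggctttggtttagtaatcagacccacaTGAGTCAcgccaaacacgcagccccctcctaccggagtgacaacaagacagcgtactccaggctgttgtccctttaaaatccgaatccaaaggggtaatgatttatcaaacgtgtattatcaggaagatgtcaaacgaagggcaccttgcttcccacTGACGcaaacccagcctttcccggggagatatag
Slc12a5: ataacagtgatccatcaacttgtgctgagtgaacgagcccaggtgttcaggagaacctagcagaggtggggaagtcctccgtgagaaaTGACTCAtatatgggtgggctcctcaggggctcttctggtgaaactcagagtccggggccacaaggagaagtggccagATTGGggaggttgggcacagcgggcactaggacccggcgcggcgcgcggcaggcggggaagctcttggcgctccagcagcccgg

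The windows were searched on both strands for 9 motifs. These were the TATA box TATAAA, the GC box GGGCGG, the CCAAT box CCAAT, the cAMP response element TGACGTCA and its shorter form TGACG, the E boxes CAGCTG and CATCTG, the Egr site GCGTGGGCG and the AP-1 site TGANTCA. A full cAMP response element also holds the shorter form, and no window printed here held a full one. No motif was found in all 5 windows. The Gad1 window held a TATA box 141 bases before the start site and a GC box 8 bases before it, both on the minus strand. That of Gad2 held a CCAAT box 226 bases before the start site, a CATCTG E box at 76 and, on the minus strand, the shorter cAMP response element at 33. The Slc6a5 window also held the shorter cAMP response element, at 34 bases, and an AP-1 site at 191. The Slc12a5 window had an AP-1 site at 162 bases and a CCAAT box on the minus strand at 84, and the Slc32a1 window held none of the 9. Of all 32851 promoters of this length, 12.4% held the TATA box, 32.7% the GC box, 33.9% the CCAAT box, 17.8% the shorter cAMP response element, 14.4% the CATCTG E box and 6.75% the AP-1 site. These are matches of letters only, and no match says only that these letters are not in this window. The windows held 50.4% G or C in Slc6a5, 58% in Gad1, 61.2% in Slc12a5, 62.4% in Slc32a1 and 64% in Gad2, beside a median of 52.4% over all promoters. Slc6a5 and Slc12a5 each have another start site, whose window is not printed and differs. Of the 9 motifs, that of Slc6a5 held only a CATCTG E box, with 43.6% G or C. That of Slc12a5 held only a GC box, with 67.2%.

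NG against IG is, by the labels, the effect of mechanical injury. Every one of the 8 genes fell in NG, and in none did an NG library overlap an IG library. Over all genes tested, 30.2% were lower in NG without overlap, and 50.5% of those with a mean of at least 500 normalised reads. The neuronal glycine transporter gene Slc6a5 fell most, by 4.72-fold, followed by Gad2 by 4.08-fold and Slc32a1 by 3.84-fold. The scaffold gene Gphn and the glial glycine transporter gene Slc6a9 fell least, by 1.94-fold and 1.98-fold. The median log2 fold change of the 8 was -1.56, beside 0 over all genes tested. Of all genes tested, 20.4% were called lower in NG and 19.6% higher, so 8 of 8 lower stands well above the background share. The 8 genes are well expressed, and among the 6828 genes with a mean of at least 500 normalised reads, a background added after the values were seen, 40.9% were called lower, with a median log2 fold change of -0.16. In bulk samples fewer cells of a type and less RNA per cell cannot be told apart.

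Among the synthesis enzymes, Gad1 stood, library A before library B, at 1409 and 1236 normalised reads in IG, 552 and 464 in NG and 2225 and 2156 in TG. The NG libraries were the lowest and the TG libraries the highest, with no overlap between groups. Gad1 fell in NG with a log2 fold change of -1.38 (SE 0.11, limma adjusted p = 2.6e-05). Gad2, the decarboxylase found mainly at nerve terminals, stood at 1004 and 956 in IG, 258 and 222 in NG and 1738 and 1726 in TG. Its NG libraries were again the lowest and its TG libraries the highest. Its log2 fold change in NG was -2.03 (SE 0.10, limma adjusted p = 3.2e-06).

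Slc32a1, the vesicular loader, stood at 1882 and 2180 in IG, 498 and 560.01 in NG and 2509 and 2650.0 in TG, so that IG B lay between IG A and the TG libraries without reaching them. It fell in NG with a log2 fold change of -1.94 (SE 0.10, limma adjusted p = 4.4e-06). Slc6a5, which returns glycine to the terminals that released it, stood at 3228 and 3119 in IG, 716 and 628 in NG and 4443 and 4253 in TG. The 3 groups were well apart. The fall in NG was -2.24 on the log2 scale (SE 0.08, limma adjusted p = 1.1e-06). Slc6a9, which clears glycine mainly into glia, stood at 1791 and 1769 in IG, 842 and 959 in NG and 1652 and 1656 in TG. Here the NG libraries alone stood apart by a wide margin, and IG lay a little above TG. Its log2 fold change in NG was -0.99 (SE 0.08, limma adjusted p = 4.4e-05).

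Gphn stood at 1047 and 918 in IG, 548 and 467 in NG and 1041 and 963 in TG. The IG and TG libraries overlapped, and both NG libraries were below them. Gphn fell in NG with a log2 fold change of -0.95 (SE 0.11, limma adjusted p = 2.2e-04). Slc12a5, the chloride exporter of mature neurons, stood at 4010.5 and 4676 in IG, 1130.1 and 1482 in NG and 6452 and 6885 in TG. The libraries of a group lay further apart for this gene than for Slc12a2, but the groups did not overlap. Its log2 fold change in NG was -1.74 (SE 0.13, limma adjusted p = 2.3e-05). Slc12a2 (chromosome 18, 57878678 to 57946821, plus strand), an importer that neurons and many other cells express, stood at 5325 and 5263 in IG, 2339 and 2383 in NG and 6025 and 5756 in TG. NG was the lowest group and TG lay slightly above IG. The log2 fold change in NG was -1.16 (SE 0.07, limma adjusted p = 7.7e-06).

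**Figure D1:**
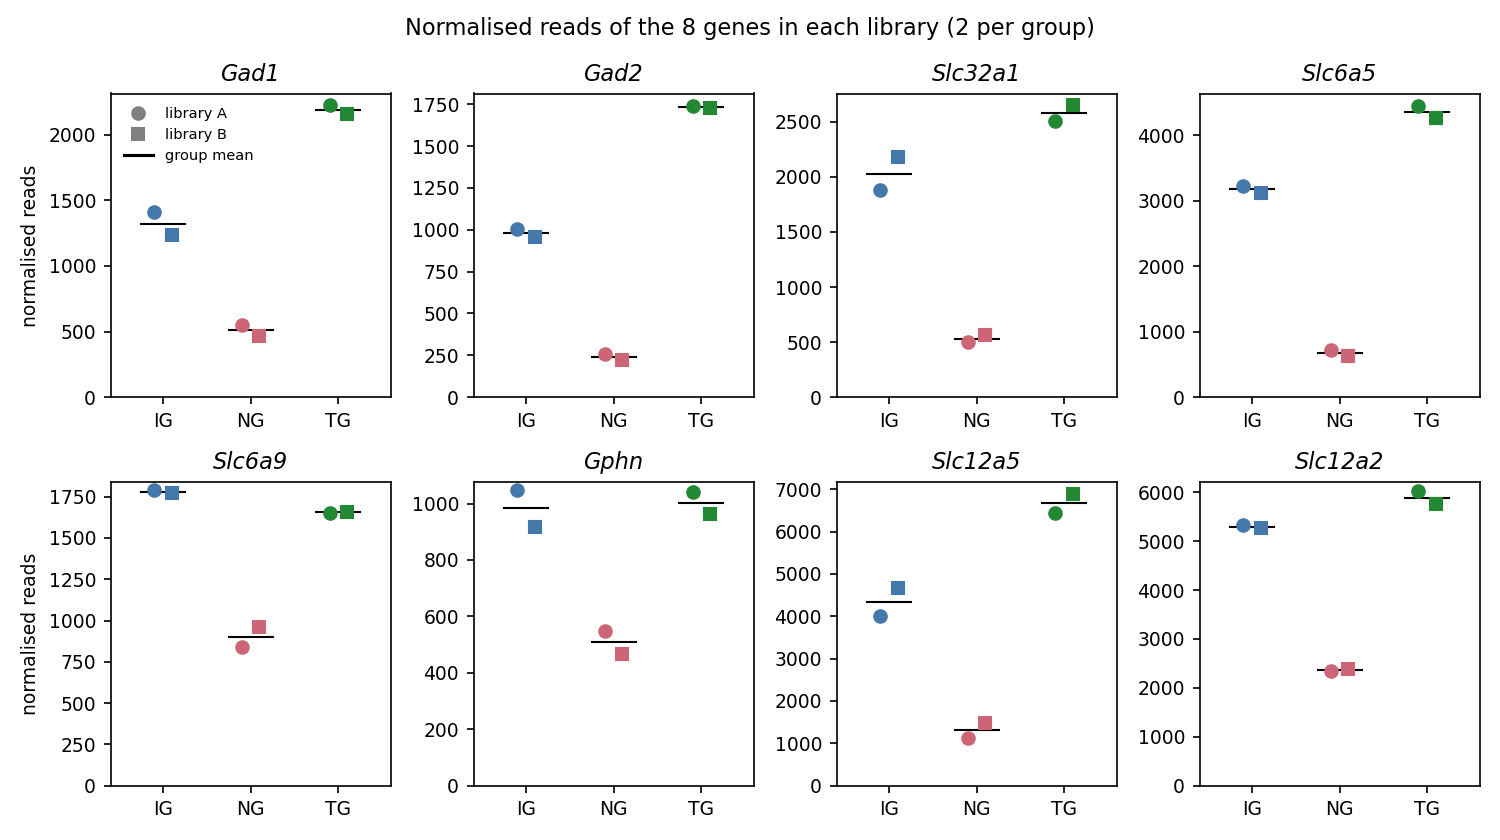
Normalised reads (y axis, linear from 0, a scale of its own per gene) of the 8 genes in the 3 groups (x axis), with circles for library A, squares for library B and bars for the mean of the 2 libraries of a group. The NG libraries are the lowest for all 8 genes, and the TG libraries lie above the IG libraries except in Slc6a9, where they lie below, and Gphn, where they overlap.

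Cell type markers moved with the same contrast. The general neuron markers were lower for 15 of 16 genes and higher for none, and their summed level was 108127 to 109270 in IG and 62711 to 63156 in NG. Among glia, 9 of 11 oligodendrocyte markers fell (10.2% to 10.5% of reads in IG, 6.04% to 6.37% in NG), as did 4 of 5 oligodendrocyte precursor markers (summed level 21822 to 24905 and 8329.9 to 10594) and 10 of 11 astrocyte markers, with 1 higher (156610 to 159670 and 111506 to 114949). Markers of other tissues rose. Of 7 skeletal muscle markers 6 rose (9032 to 9296 in IG, 82765 to 87006 in NG), as did 7 of 8 fibroblast and meningeal markers (39071 to 39775 and 117006 to 118215), 5 of 5 adipocyte markers (1058 to 1084 and 21011 to 23370) and 4 of 6 endothelial markers, with 1 lower (3723 to 3918 and 5716 to 5837). All 6 hepatocyte markers fell, from a summed level of 16964 to 18050.2 in IG to 41.2 to 46.9 in NG, and were at 29.8 to 29.9 in TG. Of 6 motor and cholinergic neuron markers 3 fell (2570 to 2605 in IG, 1831 to 1863 in NG). Microglia and macrophage markers went both ways, with 4 of 8 higher and 1 lower, and so did red blood cell markers, with 1 of 6 higher and 1 lower. No marker of any of these lists was at 0 in all 6 libraries. The part of these markers in the fall of the 8 genes was not tested. When libraries were scaled by total reads without the mitochondrial ones, all 8 genes were still called lower in NG.

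**Figure D2:**
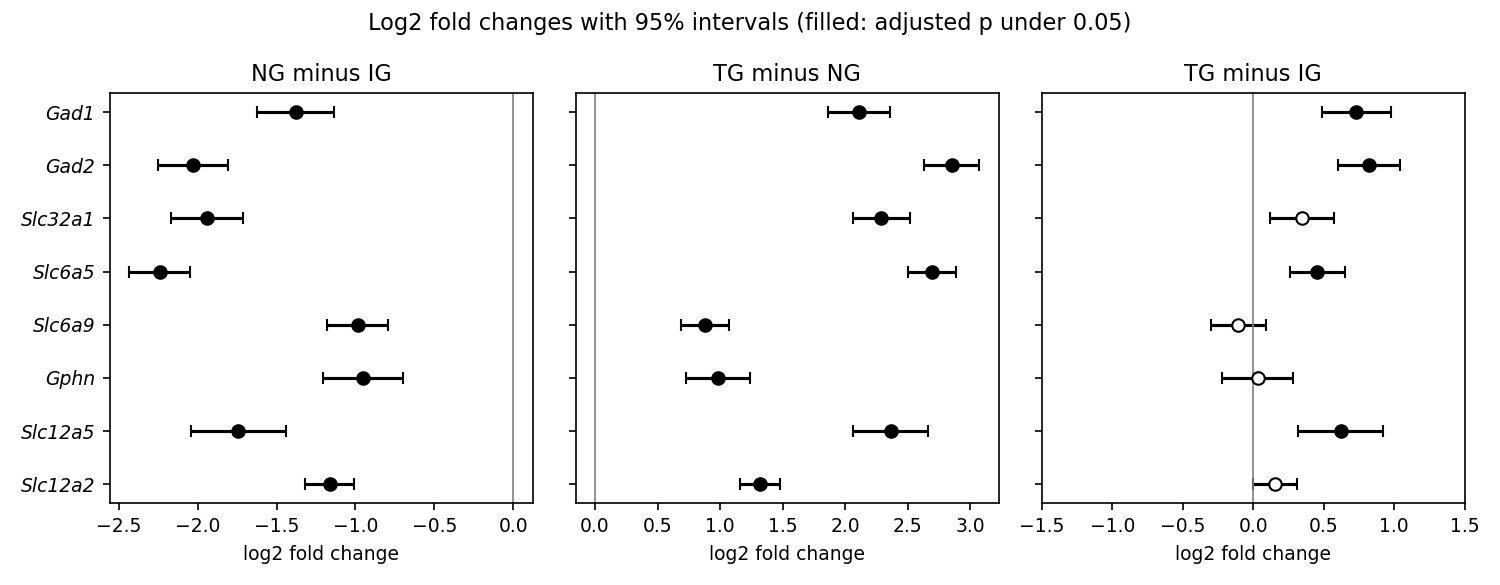
Log2 fold changes of the 8 genes (x axis, log2 of normalised reads plus 1) in the 3 comparisons, with bars for the 95% interval of the limma fit and filled circles for an adjusted p under 0.05. All 8 are below 0 in NG minus IG and above 0 in TG minus NG, while in TG minus IG only Gad1, Gad2, Slc6a5 and Slc12a5 are filled.

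The other genes that handle GABA and its precursor had smaller log2 fold changes than Gad2, but Slc6a12 and Slc1a1 fell more than Gad1, at -1.38. These differences were not tested. Of 6 genes of GABA reuptake and breakdown 5 fell in NG and none rose. Slc6a11, the gene of an astrocyte GABA transporter, had a log2 fold change of -1.22 (SE 0.07, limma adjusted p = 8.4e-06). Abat, the transaminase that breaks GABA down, changed by -0.71 (SE 0.07, limma adjusted p = 8.0e-05). Slc6a12, a betaine and GABA transporter gene, changed by -1.58 and was at 62.4 ± 2.57 in NG and 189 ± 18.3 in IG (SD, n = 2 libraries). Of 9 genes that supply glutamate and glutamine 8 fell and none rose, with Slc1a1, a neuronal glutamate transporter gene, at -1.80 and Slc38a1, a glutamine transporter gene, at -1.19. Of 8 genes listed for glycine synthesis and cleavage 3 fell and 2 rose. The 3 included the transporter genes Slc7a10, at -1.04, and Slc6a7, at -1.37, which neither make nor cleave glycine. Gldc, the glycine decarboxylase, changed by -1.58, and Shmt1, which makes glycine from serine, by 1.13. Named genes of all these lists passed the limma test unless said otherwise.

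On the receiving side, 9 of 10 genes of the inhibitory postsynaptic scaffold fell and 1 rose. Nlgn2, the neuroligin of inhibitory synapses, fell by 1.10 on the log2 scale, while Gabarap, a trafficking and autophagy protein gene, rose with a log2 fold change of 0.37. Shisa7 and Slitrk3 fell most, with -1.81 and -1.52. Of 13 GABA-A receptor subunits 10 fell and none rose, led by Gabrb2 at -2.64. Of 5 glycine receptor subunits 4 fell, among them Glra2 at -1.40 and the beta subunit Glrb at -1.25. Gephyrin also makes the molybdenum cofactor, and of the 5 other genes of that pathway and its enzymes 2 rose and none fell, Mocs2 by 0.76 and Xdh by 0.55. Of 15 genes listed for chloride cotransporters and their kinases 8 fell and 4 rose. The 8 included the chloride channel gene Clcn2, at -0.71, and Neto2, at -0.92, which are neither. The kinase genes Wnk3 and Wnk2 stood at -1.15 and -1.13. In the other direction went Wnk4 at 0.83 and the potassium chloride cotransporter gene Slc12a7 at 0.56. Of 12 transcription factors of the spinal inhibitory lineages with a read 5 fell and 1 rose, and Ptf1a was at 0 in all libraries. Tfap2b fell with -1.55 and Lhx1 with -0.95, and the gene that rose was Gata2 (0.74, limma adjusted p = 0.049), which was not called under total read scaling. Of the 3 vesicular glutamate transporter genes 2 fell. Slc17a6, which loads glutamate into vesicles in excitatory neurons, fell with a log2 fold change of -1.36 (SE 0.11, limma adjusted p = 3.3e-05). Over all 10 pathway lists, 54 of 86 genes tested fell and 10 rose, with a median of -0.73.

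TG against NG is, by the labels, the effect of hydrogen on injured samples. All 8 genes rose in TG, and no TG library overlapped an NG library, beside 32% of all genes tested that were higher without overlap and 52.4% of those with a mean of at least 500 normalised reads. Gad2 rose most, by 7.22-fold, then Slc6a5 by 6.47-fold, Slc12a5 by 5.10-fold, Slc32a1 by 4.88-fold and Gad1 by 4.31-fold. Slc12a2 rose by 2.49-fold, Gphn by 1.97-fold and Slc6a9 by 1.84-fold. The median log2 fold change was 2.20, beside 0 over all genes. Of all genes tested 22.2% were called higher and 23.1% lower, and 43.5% of those with a mean of at least 500 normalised reads were called higher, with a median of 0.18. This contrast shares its NG libraries with the one above, so the opposite directions of both are not independent of each other.

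For synthesis and loading, the log2 fold changes in TG were 2.11 for Gad1 (SE 0.11, limma adjusted p = 2.0e-06), 2.85 for Gad2 (SE 0.10, limma adjusted p = 4.1e-07) and 2.29 for Slc32a1 (SE 0.10, limma adjusted p = 1.0e-06). Of the glycine transporters, Slc6a5 had 2.70 (SE 0.08, limma adjusted p = 2.9e-07) and Slc6a9 0.88 (SE 0.08, limma adjusted p = 5.0e-05). Gphn had 0.98 (SE 0.11, limma adjusted p = 1.2e-04). Of the chloride transporters, Slc12a5 had 2.36 (SE 0.13, limma adjusted p = 2.9e-06) and Slc12a2 1.32 (SE 0.07, limma adjusted p = 2.3e-06). The order of the 8 is close to that of the falls in NG, with Gad2 and Slc6a5 at the top and Slc6a9 and Gphn at the bottom, and the 2 contrasts share NG. Scaling by total reads without the mitochondrial ones shifted the median of all genes by -0.10 in this contrast and left all 8 called higher.

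Marker lists moved here as well. All 16 neuron markers rose in TG, to a summed level of 132841 to 133085, as did all 11 oligodendrocyte markers (12.2% to 12.3% of reads), 8 of 11 astrocyte markers (132487 to 134992) and 3 of 5 oligodendrocyte precursor markers with 1 lower (18715 to 19998). Of the skeletal muscle markers 6 of 7 fell (12104 to 12288), all 8 fibroblast and meningeal markers fell (17821 to 18117), all 5 adipocyte markers fell (697 to 706), and 3 of 6 endothelial markers fell with 1 higher (3684 to 3756). Among microglia and macrophage markers 4 of 8 fell and 1 rose, red blood cell markers rose in 4 of 6 and fell in 1, motor and cholinergic neuron markers fell in 3 of 6 and rose in 2, and hepatocyte markers rose in 1 of 6 and fell in 1. The part of these markers in the rise of the 8 genes was not tested.

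Over the 10 pathway lists, 55 of 86 genes rose in TG and 12 fell, with a median of 0.86. In the GABA reuptake and breakdown list 4 of 6 rose and 1 fell. Slc6a11 rose with a log2 fold change of 1.19, while Slc6a13, a GABA transporter gene also found in meninges, fell by 0.57. Of the scaffold genes 9 of 10 rose, with Nlgn2 at 1.28, and Gabarap fell by 0.58. Of the GABA-A receptor subunits 10 of 13 rose, led by Gabrb2 at 3.04, and of the glycine receptor subunits 4 of 5, with Glra2 at 2.14 and Glra1, the main adult alpha subunit, at 1.75. The molybdenum cofactor list again ran the other way, with 4 of 5 lower and Mocs2 at -0.88. Of the glutamate and glutamine supply genes 6 of 9 rose, with Slc1a1 at 1.82. In the glycine synthesis and cleavage list 4 of 8 rose, the transporter genes Slc7a10 and Slc6a7 among them, and 2 fell. Slc6a7, a brain proline transporter gene, stood at 1.96 and Shmt1 at -1.65. In the chloride list 7 of 15 rose, Clcn2 and Neto2 among them, and 3 fell, with Wnk3 at 1.52 and Slc12a7 at -1.58. Of the inhibitory lineage factors 8 of 12 rose and 1 fell, with Tfap2b at 2.34 and Lhx5 at 1.73. All 3 vesicular glutamate transporter genes rose, among them Slc17a6 at 1.84.

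TG against IG sets, by the labels, injured samples given hydrogen beside untreated ones. Gad1, Gad2, Slc6a5 and Slc12a5 rose in TG, by 1.66-fold, 1.77-fold, 1.37-fold and 1.54-fold. The other 4 did not pass the test. Of all genes tested, 4.16% were called higher and 7.16% lower, and 9.11% of those with a mean of at least 500 normalised reads were called higher. The median log2 fold change of the 8 was 0.40, beside 0.0068 over all genes. When libraries were scaled by total reads, 683 genes were called higher and 2114 lower in this contrast in place of 1020 and 1756, and without the mitochondrial reads 664 and 2056. The same 4 of the 8 were called under both.

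The log2 fold changes were 0.73 for Gad1 (SE 0.11, limma adjusted p = 0.0036) and 0.82 for Gad2 (SE 0.10, limma adjusted p = 0.0013), and all TG libraries of both genes lay above all IG libraries, as did those of 25.6% of all genes tested. Slc6a5 had 0.45 (SE 0.08, limma adjusted p = 0.011) and Slc12a5 0.62 (SE 0.13, limma adjusted p = 0.019), also with no overlap. Slc32a1 missed the threshold at 0.35 (SE 0.10, limma adjusted p = 0.061), although both TG libraries lay above both IG libraries. Slc12a2 stood at 0.15 (SE 0.07, limma adjusted p = 0.22, 95% interval -0.0041 to 0.31). Slc6a9 stood at -0.11 (SE 0.08, limma adjusted p = 0.54, 95% interval -0.30 to 0.089) and Gphn at 0.030 (SE 0.11, limma adjusted p = 0.93, 95% interval -0.22 to 0.28), with the sign of Gphn reversed to -0.044 under total read scaling. A p that misses the threshold does not show that these 4 were equal in the groups.

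These 4 calls rest on all 6 libraries. Without IG A, IG B, TG A or TG B none of the 8 was called (limma adjusted p), although 3, 5, 3 and 4 of them had an unadjusted p under 0.05, and only 76, 81, 2 and 0 genes of all were called. Without NG A or without NG B, Gad2 and Slc6a5 were called and the other 6 were not. The directions of the 4 were kept throughout. The authors' deposited table for this pair called 5 of the 8 higher, adding Slc32a1, with 4.46% of its 23700 genes called higher.

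Of the neuron markers 7 of 16 rose in TG against IG and none fell, with the rises of Syt1 at 0.87 and Snap25 at 0.65 as the highest. Among the glial markers, 4 of 11 oligodendrocyte markers rose, 2 of 11 astrocyte markers and 3 of 5 oligodendrocyte precursor markers fell. Of the other markers 7 of 8 of fibroblasts and meninges fell, 4 of 6 of motor and cholinergic neurons fell and none rose, 3 of 7 of skeletal muscle rose, and all 6 of hepatocytes fell. The part of these markers in the 4 rises was not tested. Of the 86 pathway genes 13 rose and 6 fell, with a median of 0.18. Among them were Gabrg3 at 0.79 of the 3 GABA-A subunits that rose, Glra2 at 0.75, the scaffold genes Iqsec3 at 0.88 and Lhfpl4 at 0.43, the vesicular glutamate transporter genes Slc17a7 at 2.08 and Slc17a6 at 0.48 and 4 inhibitory lineage factors including Gbx1 at 1.55 and Lhx5 at 1.08. The transporter gene Slc6a11 and the transaminase gene Abat did not pass, at -0.030 and 0.24. Slc6a12 and Slc6a13 fell, with -1.18 and -0.73, as did Slc12a7 with -1.02 and the related Slc12a4 with -0.59.

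**Figure D3:**
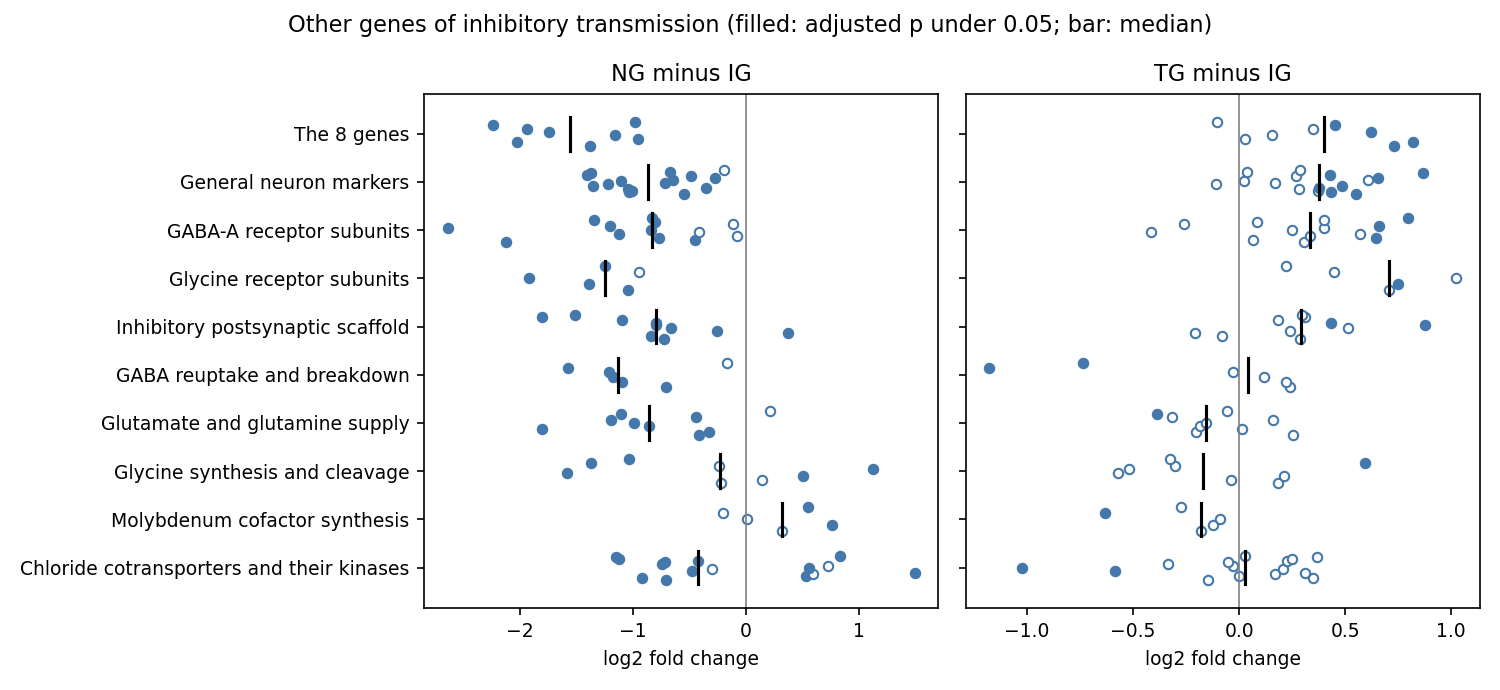
Log2 fold changes (x axis) of the 8 genes, the general neuron markers and 8 lists of other genes of inhibitory transmission, 1 point per gene, filled where the adjusted p was under 0.05, with a bar for the list's median, for NG minus IG and TG minus IG. In NG minus IG the median of the 8 genes is -1.56 and that of the neuron markers -0.86, and the molybdenum cofactor list is the only one drawn with a median above 0.

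The authors' deposited tables gave the same directions for the 8 genes in both contrasts with NG. In the authors' deposited table of NG and IG the log2 fold changes, put as NG over IG, ran from -2.25 for Slc6a5 to -0.97 for Gphn, with all 8 called and 16.2% of all 23624 genes with an adjusted p called lower. In the authors' deposited table of TG and NG they ran from 0.88 for Slc6a9 to 2.85 for Gad2, with all 8 called and 18.7% of 23721 genes called higher. In the authors' deposited table of TG and IG, Slc32a1 had a log2 fold change of 0.33 and an adjusted p of 0.021.

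Levels of different genes were compared per kilobase of merged exons in the GENCODE M21 annotation, which spans 2797 bases in Slc32a1 and 10920.0 in Slc12a2. In IG, Slc32a1 was highest at 726 ± 75.2 normalised reads per kilobase (SD, n = 2 libraries), then Slc12a5 at 583 ± 63.2, Slc12a2 at 485 ± 4.03, Slc6a5 at 441 ± 10.7, Slc6a9 at 346 ± 3.03 and Gphn at 262 ± 24.3. Gad1 at 173 ± 16.01 and Gad2 at 167 ± 5.79 were lowest, and these 2 were the only neighbours in IG whose libraries overlapped. The order changed in NG. Slc12a2 was highest there at 216 ± 2.83, above Slc32a1 at 189 ± 15.8, Slc12a5 at 175 ± 33.5 and Slc6a9 at 175 ± 16.1, whose libraries overlapped one another in that order. Gphn followed at 135 ± 15.4, then Slc6a5 at 93.3 ± 8.61, Gad1 at 66.5 ± 8.15 and Gad2 at 40.8 ± 4.36. In TG, Slc32a1 at 922 ± 35.5 and Slc12a5 at 895 ± 41.1 overlapped at the top, above Slc6a5 at 604 ± 18.6, Slc12a2 at 539 ± 17.4 and Slc6a9 at 322 ± 0.506. Gad2 at 295 ± 1.45 and Gad1 at 287 ± 6.30 lay above Gphn at 267 ± 14.8. On this scale the chloride importer gene was thus the highest of the 8 in NG, while Slc32a1 was the highest in the other groups. Slc32a1 and Slc6a9 share exon bases with other genes, as given below, and their full exon length was used here. If reads in shared bases were left uncounted, both genes stand too low in these orders. The effect of this on the order, and on the top place in NG, was not tested.

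Ratios within a library do not depend on how libraries were scaled, and no pseudocount was added for them. Gad1 to Gad2, in normalised reads and again A before B, was 1.40 and 1.29 for IG, 2.14 and 2.09 for NG, and 1.28 and 1.25 in TG. The NG libraries had the highest share of Gad1, and the TG libraries lay just below the IG ones. Slc6a5 to Slc6a9, the neuronal to the glial glycine transporter, was 1.80 and 1.76 in IG, 0.850 and 0.655 in NG and 2.69 and 2.57 in TG. The glial form was thus the more abundant in both NG libraries and the neuronal form in the other 4, and per kilobase the same held, with means of 1.27, 0.537 and 1.88. Slc6a9 shares exon bases with other genes, as given below, and the effect of this on the ratio was not tested. Slc12a5 to Slc12a2, exporter to importer, was 0.753 and 0.888 in IG, 0.483 and 0.622 in NG and 1.07 and 1.20 in TG. Per kilobase, IG had a mean of 1.20, NG of 0.810 and TG of 1.66, so on that scale the exporter was below the importer in NG only. No group overlapped another in any of these 3 ratios. How many other pairs of genes separate the groups in this way was not counted, so this is not read as particular to these pairs. Slc32a1 to Slc17a6, inhibitory to excitatory vesicular loading, was 0.930 and 1.21 in IG, 0.607 and 0.829 in NG and 0.907 and 1.04 in TG, with IG and TG overlapping and NG below both. These ratios are values with no test. A two-sided exact permutation test of 2 libraries against 2 cannot go below p = 0.333, and no other test of them was run.

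**Figure D4:**
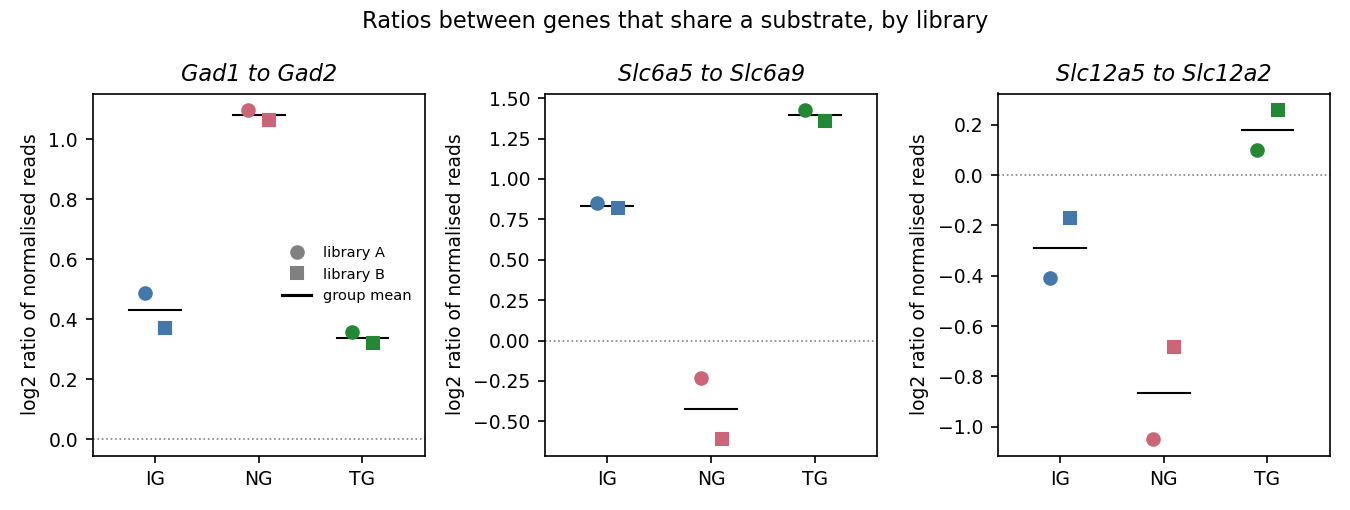
Log2 ratio of normalised reads (y axis) of Gad1 to Gad2, Slc6a5 to Slc6a9 and Slc12a5 to Slc12a2 in each library of the 3 groups (x axis), with circles for library A, squares for library B, bars for the group mean and a dotted line at equal reads. NG is the highest group in Gad1 to Gad2, at 1.10 and 1.07, and the lowest in the other ratios.

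The 8 genes were also set against neurons at large, as each gene's log2 level less the mean log2 level of the 16 general neuron markers in the same library. That marker mean was lower in NG than in IG by a difference of -0.84, higher in TG than in NG by 1.20 and higher in TG than in IG by 0.36. Against it Slc6a5 still stood lower in NG, at a mean of -2.05 beside -0.66 in IG, and so did Gad2, at -3.54 beside -2.35. Slc32a1 stood at -2.40 and -1.30 and Slc12a5 at -1.11 and -0.21. The difference was smaller in Gad1, at -0.54, Slc12a2, at -0.32, and Slc6a9, at -0.14, and in Gphn, at -0.11, the libraries of NG and IG overlapped. In all, 7 of the 8 were lower in NG without overlap, beside 8.31% of all genes with a read and 10% of those with a mean of at least 500 normalised reads on the same measure. Gad2, Slc32a1, Slc6a5 and Slc12a5 had a lower log2 fold change in NG than every one of the 16 neuron markers, whose changes ran from -1.41 to -0.19.

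In TG against NG the same measure rose without overlap in 6 of the 8, from 0.12 in Slc12a2 to 1.65 in Gad2, and was lower in Slc6a9, at -0.32, and Gphn, at -0.22. On this measure 5.68% of all genes were higher without overlap and 82.2% lower, and 7.38% of those with a mean of at least 500 normalised reads were higher. Gad2, Slc32a1, Slc6a5 and Slc12a5 again lay past every neuron marker, which ran from 0.48 to 2.24. In TG against IG, Gad1, Gad2, Slc6a5 and Slc12a5 were higher relative to the markers, by 0.37, 0.46, 0.096 and 0.26, while Slc6a9, Gphn and Slc12a2 were lower, by differences of -0.46, -0.33 and -0.20. Of all genes 7.17% were higher and 61.4% lower on this measure without overlap. Slc32a1 changed about as the markers did, with a difference of -0.010, and none of the 8 lay past every marker. These differences are values with no test, and the markers themselves include genes that respond to injury.

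**Figure D5:**
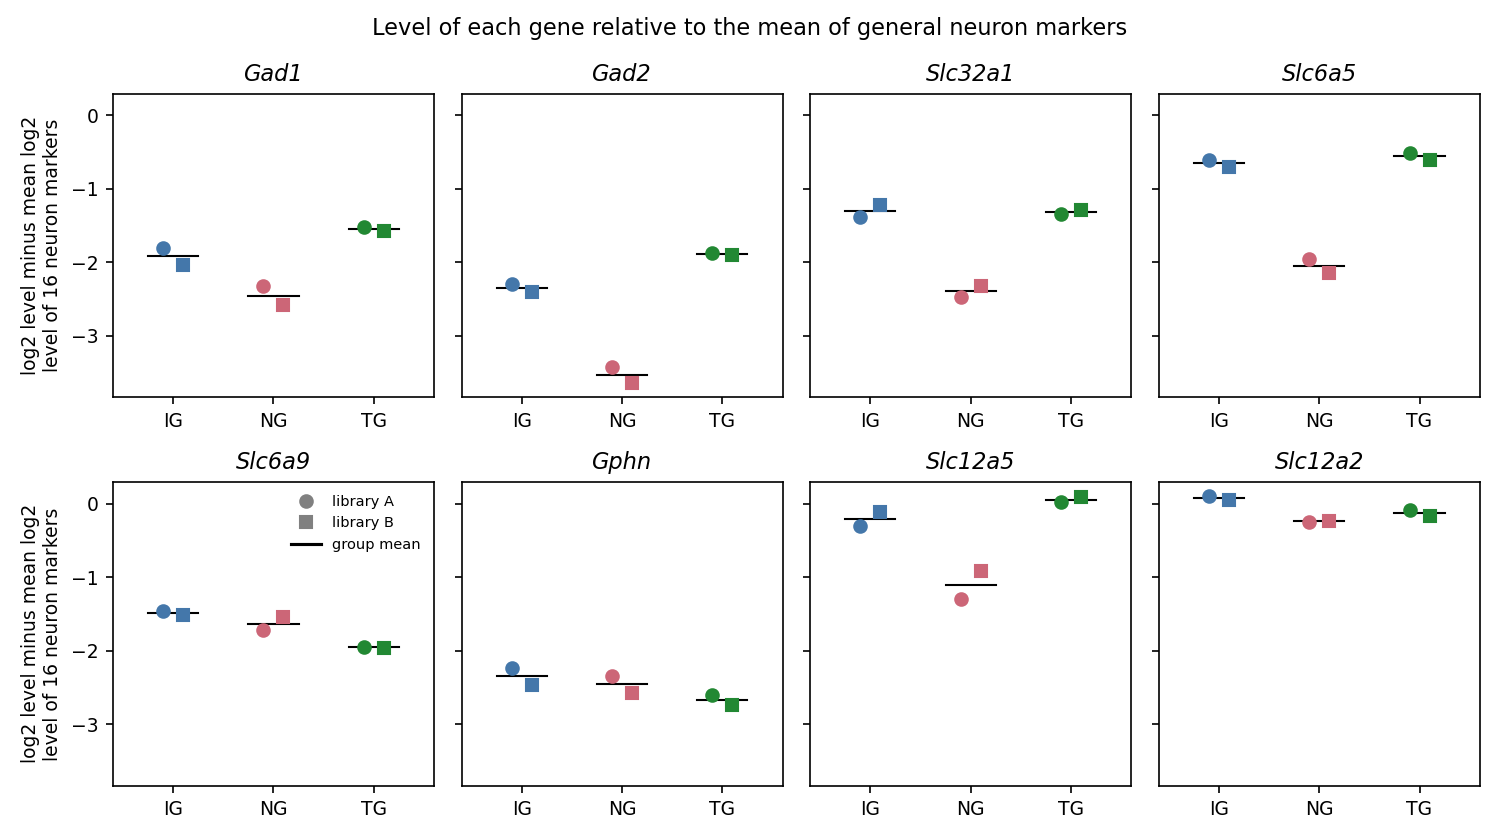
Log2 level of each gene less the mean log2 level of the 16 general neuron markers (y axis, the same for all panels) in each library of the 3 groups (x axis), with circles for library A, squares for library B and bars for the group mean. Relative to the markers, Gad2, Slc32a1, Slc6a5 and Slc12a5 fall most from IG to NG, and Slc6a9 and Gphn have their lowest values in TG.

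The 8 genes fell into profiles of different depth. By Euclidean distance between log2 profiles over the 6 libraries, each centred on its own mean, the closest pairs were Slc32a1 and Slc12a5 at 0.32, Slc6a9 and Gphn at 0.36 and Gad2 and Slc6a5 at 0.37. The farthest was Gad2 from Slc6a9, at 1.99. The decarboxylase genes lay 0.81 apart and the glycine transporter genes 1.88 apart, so partners that share a substrate were not each other's nearest. Among 13683 genes with a mean of at least 50 normalised reads, the closest to Gad1 were Camk4 at 0.089, Dzank1 at 0.16 and Plcxd2 at 0.16. The closest to Gad2 were Trpc5 at 0.28, Ttc21a at 0.33 and Hoxd10 at 0.36. Nearest to Slc32a1 were Sv2a, a synaptic vesicle protein gene, at 0.17, the immediate early gene Fos at 0.18 and the calcium sensor gene Syt2 at 0.18. Slc6a5 had Slc24a2 at 0.22, the neuronal gap junction gene Gjd2 at 0.24 and Lingo2 at 0.26. Slc12a5 had the immediate early gene Arc at 0.15, the vesicular amino acid transporter gene Slc6a17 at 0.20 and the vesicular zinc transporter gene Slc30a3 at 0.24. Slc6a9 was closest to Nav1 at 0.095, Chst11 at 0.11 and Gm3764, a noncoding RNA gene, at 0.12. Gphn was closest to Rdh11 at 0.072, Magi2, a synaptic scaffold gene, at 0.081 and Lmbrd1 at 0.094. Slc12a2 was closest to Ckmt1 at 0.068 and to Ptn at 0.080. The distances rest on 6 libraries in 3 groups, so any gene with the same group means comes out close.

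Slc32a1 and Slc6a9 share exon bases with genes on the opposite strand, and the kit does not mark strand, so reads of the partners cannot be told apart there. Slc32a1 shares 697 bases, 24.9% of its exons, with the antisense gene Gm14205, which had 1 read over the 6 libraries beside 10666 for Slc32a1. Slc6a9 shares 1429 bases, 27.8% of its exons, with Ccdc24, which had 42 reads beside 8953, and 46 bases with B4galt2, which had 5811. A further 511 bases of Slc6a9 are shared with the noncoding RNA gene Gm17114, which had no reads. The lowest read number of any of the 8 was 183, for Gad2 in NG B, with a 95% Poisson interval of 157 to 212 that covers counting error only.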

How the data were processed

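The submitters' processing notes name Bowtie2 2.0.6, HTSeq 0.6.1 and the mm10 build. The annotation, the counting settings and the test behind the deposited p-values were not given in any label or header. Per the labels' protocols, RNA of the 6 samples was extracted with Trizol and made into libraries with a TruSeq RNA kit. The authors deposited 3 tables, each comparing a pair of groups. Per the file headers, their columns are a read count for both groups, the log2 fold change and the p-value with its adjusted form. The deposited read counts are a normalised signal and not whole: a value is the group's mean of reads over size factor, taken over its 2 libraries.

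A group stands in 2 tables with different size factors, and these 2 equations gave each gene's reads in both libraries. All solutions were whole to within 0.001 reads (100% of 35275 genes). Libraries carry no sample numbers in the tables, hence the letters. The recovered reads were scaled with median-of-ratios factors for the 6 libraries together and tested with limma 3.58.1 (R 4.3.3) on log2(normalised reads + 1), with a trended prior and 3 residual degrees of freedom. On this scale low genes change by less than their true ratio. Recovery and limma were also run on simulated data. The limma simulation changed far fewer genes than were called here and gave all genes the same dispersion. It therefore does not measure the error of limma in these data. Libraries of 1 group differed beyond sampling noise, with a chi-square statistic per gene of 8.94 in IG, 17.3 in NG and 5.40 in TG. The labels name no batch.

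Symbols and positions come from GENCODE M21, which matched 34490 of the 35275 gene IDs and 98.8% of those with a read. One listed scaffold gene, Insyn2a, was not matched. The 8 genes, the 10 pathway lists and the 12 marker lists were chosen with earlier results of these data known. Besides the 8, the text names from each list up to 2 of the highest and 2 of the lowest log2 fold changes among called genes with a mean of at least 50 normalised reads, plus Slc6a11, Abat, Nlgn2 and Slc17a6, and for likeness the 3 nearest genes. Some genes that this rule names are not reported here. Alternatives were other scalings, pseudocounts of 0.5 and 5, a mean of at least 10 normalised reads, a fit on the 4 libraries of a pair, a prior with no trend, voom, the authors' adjusted p and each library left out in turn. Promoter sequences are RefSeq's.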

Additional observations from a re-analysis of the deposited data

How the results depend on the processing

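Both contrasts with NG kept all 8 calls and directions under the 16 alternatives, which were other scalings, pseudocounts, filters, fits, the authors' own test and each library left out. Of 384 member values under alternatives, 353 kept direction and side of the threshold, 23 lost the call, 4 gained it and 4 reversed, all in TG against IG. There, the number of the 8 called was 4, and it was 1 with no trend in the prior variance, where Gad1, Slc6a5 and Slc12a5 had limma adjusted p of 0.07, 0.12 and 0.16. With 1 library left out it ran from 0 to 2, and then an arm with 1 library is assumed to vary like the others. The fitted log2 fold change of Gphn in that contrast reversed to -0.044 under total read scaling and to -0.039 without mitochondrial reads in the total, and ran from -0.068 to 0.12 with a library left out. The cause was not tested. Slc32a1 was called higher there with the filter on low values (limma adjusted p = 0.048), the pairwise fit (limma adjusted p = 0.027), voom (limma adjusted p = 0.034) and in the authors' deposited table (adjusted p = 0.021), beside a range of 0.021 to 0.37 over its alternatives. Counts over all genes in NG against IG were 4218 higher and 5716 lower by total reads, and 5584 and 4346 without mitochondrial reads, in place of 4815 and 5001. In TG against NG the latter scaling gave 4379 and 6824 in place of 5451 and 5668. Of 1056 counts over the other lists, 844 stayed within 1.5-fold, 197 were lower, 144 of them in TG against IG, and 15 higher. No paired analysis was possible because the deposited columns are group means that carry no replicate numbers.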
